A study of Mus musculus with 13 samples.

Results

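The myogenic transcription factors described here were 8 genes, Pax7, Myod1, Myf5, Myf6, Mef2a, Mef2c, Mef2d and Six4, taken by name from a table of 21868 genes measured in mouse gastrocnemius. The rule lists them by name and uses no measured value, but the list was chosen with earlier results of these data known. All 8 had a mean of at least 10 normalized counts, the level from which genes were tested (12303 of 21868 genes). Male C57BL/6N mice (C57BL/6 in the labels), 7 weeks old on arrival, were acclimatized for 1 week, made obese on a diet with 60 kcal% fat for 15 to 17 weeks and returned to chow. During the following 3 weeks, 5 mice received vehicle (phosphate-buffered saline), 5 received semaglutide, an agonist of the GLP-1 receptor, at 30 nM/kg/day intraperitoneally, and 3 received that dose while drinking water that held 0.114 g/mL of a ketone ester. The first pair of groups carries the word placebo in its labels, and the labels do not divide the 13 libraries into batches. Between 15319471 and 23498162 reads were counted on genes per mouse, and the markers of muscle fibres were abundant in every library. Mice are called by the number in their label, 1 to 5 for vehicle, 13 to 17 for semaglutide, and 19, 21 and 22 for semaglutide + ketone ester.

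In skeletal muscle, Pax7 marks satellite cells, the resident stem cells that lie against the fibres. When these cells are activated, the basic helix-loop-helix factors Myf5 and Myod1 commit them to the muscle lineage, and myogenin and Myf6 act later, with Myf6 being the member of that family that is abundant in mature fibres. These factors bind E-box motifs as dimers with E proteins and work with MEF2 factors, which carry a MADS domain, and with homeodomain proteins such as Six4, which bind the MEF3 motif. In adult fibres, Myod1 is also known to rise after denervation, and MEF2 activity is linked to contractile activity and oxidative metabolism.

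Because members of a family resemble each other, their most alike coding stretches are printed to show how far reads could be told apart. In the 3 basic helix-loop-helix genes this was a stretch of 60 codons that holds the basic region, at chr7:46376958-46377137 on the plus strand for Myod1, and at chr10:107485545-107485724 for Myf5 and chr10:107494288-107494467 for Myf6, both on the minus strand (GRCm38, the build also called mm10, from the GENCODE vM21 transcripts). Each stretch lies within a single coding exon. Capitals mark the 116 of 180 bases that are identical in all 3 genes.
Myod1: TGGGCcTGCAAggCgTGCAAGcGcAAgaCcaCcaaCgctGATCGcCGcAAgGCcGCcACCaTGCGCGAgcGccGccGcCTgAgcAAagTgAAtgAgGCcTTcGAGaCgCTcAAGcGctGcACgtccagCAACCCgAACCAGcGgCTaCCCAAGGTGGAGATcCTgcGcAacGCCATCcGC
Myf5: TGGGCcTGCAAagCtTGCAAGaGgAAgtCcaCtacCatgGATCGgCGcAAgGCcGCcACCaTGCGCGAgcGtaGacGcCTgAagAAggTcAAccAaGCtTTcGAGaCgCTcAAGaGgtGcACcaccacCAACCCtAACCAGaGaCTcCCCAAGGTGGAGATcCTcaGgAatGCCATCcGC
Myf6: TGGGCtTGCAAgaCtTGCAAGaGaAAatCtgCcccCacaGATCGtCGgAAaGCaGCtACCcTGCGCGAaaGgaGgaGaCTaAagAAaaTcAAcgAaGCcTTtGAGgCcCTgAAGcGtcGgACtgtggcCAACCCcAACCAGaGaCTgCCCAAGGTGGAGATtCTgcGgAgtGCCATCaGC
Over these codons, Myod1 and Myf5 shared 88.3% of their residues, Myod1 and Myf6 76.7%, and Myf5 and Myf6 78.3%. Myf5 and Myf6 are also neighbours, on the same strand of chromosome 10 with 6718 bases between them.

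For the 3 MEF2 genes, the most alike stretch of 57 codons lies near the start of the coding sequence, in the MADS box and the adjoining MEF2 domain, and is split over 2 exons. It covers chr7:67316792-67316809 and chr7:67295426-67295578 for Mef2a on the minus strand, chr13:83575713-83575730 and chr13:83592778-83592930 for Mef2c on the plus strand, and chr3:88155845-88155862 and chr3:88156322-88156474 for Mef2d on the plus strand. Capitals mark the 129 of 171 bases identical in all 3.
Mef2a: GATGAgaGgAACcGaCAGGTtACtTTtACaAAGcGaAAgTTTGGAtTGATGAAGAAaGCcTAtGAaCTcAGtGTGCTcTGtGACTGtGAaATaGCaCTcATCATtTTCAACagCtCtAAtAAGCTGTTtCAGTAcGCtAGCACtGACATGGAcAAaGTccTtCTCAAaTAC
Mef2c: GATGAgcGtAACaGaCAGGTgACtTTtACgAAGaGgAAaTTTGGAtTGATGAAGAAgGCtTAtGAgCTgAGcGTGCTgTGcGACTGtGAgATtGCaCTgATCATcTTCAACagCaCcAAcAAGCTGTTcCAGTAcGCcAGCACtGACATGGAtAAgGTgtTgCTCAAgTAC
Mef2d: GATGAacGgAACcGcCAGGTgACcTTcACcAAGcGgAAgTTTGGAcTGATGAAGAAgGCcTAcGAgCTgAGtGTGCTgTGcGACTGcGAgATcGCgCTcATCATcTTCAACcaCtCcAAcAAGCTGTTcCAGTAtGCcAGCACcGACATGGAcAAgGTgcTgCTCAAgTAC
Here 98.2% of residues were identical between Mef2a and Mef2c and between Mef2a and Mef2d, and 96.5% between Mef2c and Mef2d. At the level of bases, however, the longest run shared by any transcripts of 2 genes of the same family was 28 bases (Mef2c and Mef2d), against reads of 59 bp. For the bHLH genes, the longest run was 26 bases, shared by Myod1 and Myf5. Mef2a overlaps Lysmd4 on the opposite strand and the unverified genes Gm44667 and Gm44668 on its own strand, and Mef2d overlaps 1700113A16Rik on the opposite strand. The paper names a stranded library preparation, but whether counting used strand is not given in the sources used here. Reads of the pairs on opposite strands may therefore not have been told apart, and strand cannot separate Mef2a from Gm44667 or Gm44668. No annotated gene overlaps the other 6 factors.

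Levels between genes can be compared only per length, here as normalized counts per kb of exons of coding transcripts. In vehicle-treated mice, Mef2c was the most abundant of the 8 at 1712 ± 67.2 per kb (SD, n = 5), followed by Myf6 at 1176 ± 111, Mef2d at 843 ± 58.0 and Mef2a at 604 ± 58.6. Myod1 (96.7 ± 19.4) and Six4 (30.4 ± 3.32) were far lower. The stem cell factor Pax7 (9.94 ± 2.48) and Myf5 (9.45 ± 2.58) were lowest and did not differ from each other beyond their spread, while each of the other neighbours in this order was separated by more than the sum of their SDs. In semaglutide-treated mice the order at the top was different. Per kb, Myf6 was above Mef2c in 4 of 5 semaglutide-treated mice and in 0 of 5 vehicle-treated and 0 of 3 semaglutide + ketone ester-treated mice, with either the exons of all coding transcripts or the longest transcript as the length.

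The first comparison asks which factors differ after semaglutide alone. With limma on log2(normalized count + 1), 2 of the 8 differed between semaglutide- and vehicle-treated mice at a Benjamini-Hochberg adjusted p under 0.05. Myod1, the factor of muscle commitment, rose 3.04-fold, and Mef2c, a MEF2 factor abundant in fibres, fell 1.86-fold. Pax7, Myf5, Myf6, Mef2a, Mef2d and Six4 did not pass the threshold. As 26.5% of all genes tested passed in this comparison, a count of 2 in 8 was near the background. The median log2 fold change of the 8 factors was 0.02, against a median of -0.003 over all genes tested.

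Myod1 (chr7:46376474-46379099, plus strand) had normalized counts of 129, 224, 171, 172 and 204 in vehicle mice 1 to 5. The values were 580, 942, 469, 457 and 393 in semaglutide mice 13 to 17. In semaglutide + ketone ester mice 19, 21 and 22 they were 312, 213 and 403. Every semaglutide-treated mouse was above every vehicle-treated mouse, with mouse 14 highest. Of all genes tested, 14.7% had semaglutide and vehicle values that did not overlap, and Myod1 alone of the 8 factors was among them. The log2 fold change was 1.61 ± 0.23 (SE, adjusted p = 0.00031, limma with Benjamini-Hochberg adjustment). It lay between 1.41 and 1.72 when each mouse was left out in turn, with an adjusted p of at most 0.0013. Because bulk tissue was sequenced, fewer cells of a type and less RNA per cell cannot be told apart, for Myod1 as for every gene below.

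Mef2c (chr13:83504034-83667080, plus strand) was the steadiest of the 8 factors in vehicle-treated mice, at 14073, 14032, 14167, 13442 and 12905 normalized counts. Semaglutide mice 14 to 17 had 7422, 6533, 4901 and 6572, all below every vehicle-treated mouse, whereas semaglutide mouse 13 had 13926, within the vehicle range. The values were 12359, 14702 and 12984 in semaglutide + ketone ester mice 19, 21 and 22. Against vehicle, the log2 fold change under semaglutide was -0.90 ± 0.20 (SE, adjusted p = 0.0053, limma). Without mouse 13 it was -1.13 ± 0.11 (SE, adjusted p = 3.4e-06). The coefficient of variation of Mef2c was 44.5% among the semaglutide-treated mice, the largest of the 8 factors, and 3.93% among vehicle-treated mice, the smallest.

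**Figure D1:**
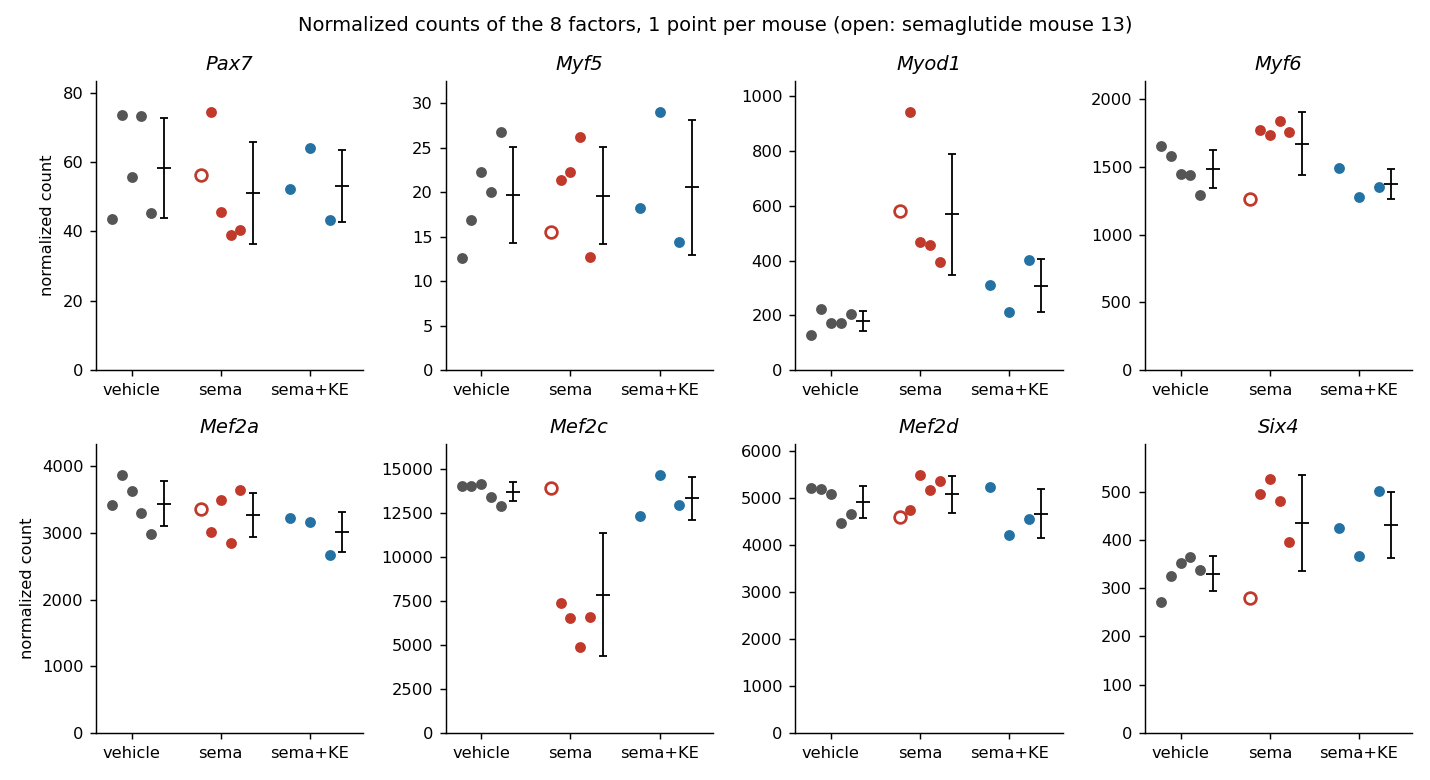
Normalized counts (y axes, from 0) of the 8 factors in vehicle-, semaglutide- (sema) and semaglutide + ketone ester-treated (sema+KE) mice, with 1 point per mouse and the mean ± SD as a black bar. Myod1 was higher in all 5 semaglutide-treated mice, and the open point, semaglutide mouse 13, was within the vehicle range for Mef2c (13926) and Six4 (279) and below it for Myf6 (1263).

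The same mouse stood apart for another pair of factors. Six4 (chr12:73099609-73113456, minus strand), a homeodomain factor that drives muscle genes in the embryo and in fibres, had 271, 326, 351, 365 and 338 normalized counts under vehicle. Semaglutide mouse 13 had 279, and mice 14 to 17 had 496, 527, 480 and 395, all above the vehicle range. The 3 semaglutide + ketone ester-treated mice had 425, 366 and 502. Semaglutide against vehicle gave a log2 fold change of 0.37 ± 0.16 (SE, adjusted p = 0.097, limma), and without mouse 13 it was 0.52 ± 0.12 (SE, adjusted p = 0.0030). Myf6 (chr10:107492853-107494737, minus strand), the bHLH factor of mature fibres, showed a like arrangement. Its normalized counts were 1659, 1578, 1446, 1444 and 1296 under vehicle. In semaglutide mice 14 to 17, Myf6 had 1770.5, 1736, 1838 and 1761, above all vehicle-treated mice, but mouse 13, at 1263, was below all of them. Under semaglutide + ketone ester, Myf6 had 1494, 1276 and 1354. The log2 fold change was 0.17 ± 0.11 (SE, adjusted p = 0.27, limma) with all mice and 0.26 ± 0.08 (SE, adjusted p = 0.016) without mouse 13. Leaving that mouse out thus brought the factors that passed the threshold to 4 of 8, while the share of all genes that passed rose to 37.4%. Mouse 13 was singled out, here and elsewhere, after its values for these factors were seen, so the p-values without it are a description. Six4 and Myf6 each passed in only 1 of 13 fits with a mouse left out, with an adjusted p of up to 0.22 (Six4) and 0.47 (Myf6).

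Mef2a (chr7:67231163-67372858, minus strand) and Mef2d (chr3:88142372-88172086, plus strand), the MEF2 factors expressed beside Mef2c in fibres, differed little. Mef2a had 3426, 3875, 3624, 3298 and 2991 normalized counts under vehicle, 3366, 3023, 3490.2, 2848 and 3643 under semaglutide, and 3219, 3169.6 and 2669 under semaglutide + ketone ester. Mef2d had 5217, 5192, 5091, 4471 and 4663 under vehicle, 4591, 4751, 5502, 5183 and 5377 under semaglutide, and 5234, 4212 and 4567 under semaglutide + ketone ester. The groups overlapped for both genes. Between semaglutide and vehicle, the log2 fold change was -0.07 for Mef2a (95% interval -0.27 to 0.13, adjusted p = 0.60) and 0.04 for Mef2d (-0.14 to 0.22, adjusted p = 0.74, limma), so that the interval of neither gene reached the size measured for Mef2c.

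The factors of satellite cells were near the lower end of what could be measured. Pax7 (chr4:139737062-139833528, minus strand) had 43.5, 73.4, 55.7, 73.2 and 45.4 normalized counts under vehicle. It had 56.1, 74.4, 45.5, 38.8 and 40.3 under semaglutide and 52.2, 64.0 and 43.3 under semaglutide + ketone ester, from 36 to 66 reads in each library. Myf5 (chr10:107482908-107486134, minus strand) had 12.6, 16.9, 22.3, 20.0 and 26.8 under vehicle, 15.5, 21.4, 22.2, 26.2 and 12.7 under semaglutide, and 18.2, 29.0 and 14.4 under semaglutide + ketone ester. The groups overlapped for both genes. Their log2 fold changes between semaglutide and vehicle were -0.19 for Pax7 (95% interval -0.66 to 0.27, adjusted p = 0.54) and -0.01 for Myf5 (-0.61 to 0.60, adjusted p = 0.99, limma), and changes within these intervals could not be told from 0 with these mice. Myogenin (Myog), the bHLH factor that drives the differentiation of myoblasts, had 54.9, 55.4, 42.1, 32.2 and 82.7 normalized counts under vehicle. Its values were 64.8, 85.6, 93.3, 92.3 and 58.2 under semaglutide and 104, 41.1 and 97.3 under semaglutide + ketone ester, and it did not pass the threshold (log2 fold change 0.60 ± 0.28, SE, adjusted p = 0.13, limma). Pax3, a paralog of Pax7, had at most 9.72 normalized counts in any mouse and was not tested.

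The second comparison asks how adding the ketone ester to semaglutide changed the factors. Again 2 of the 8 passed the threshold, against 20.7% of all genes tested, and again they were Myod1 and Mef2c. This comparison uses the same semaglutide-treated mice as the first. Myod1 was 1.80-fold lower with the ketone ester (log2 fold change -0.85 ± 0.27, SE, adjusted p = 0.035, limma), and mice 19 and 21, at 312 and 213, were below every semaglutide-treated mouse while mouse 22, at 403, was not. Mef2c was 1.81-fold higher (0.85 ± 0.23, SE, adjusted p = 0.019). Mouse 13 lay within the range of the semaglutide + ketone ester group for Mef2c, and the other 4 semaglutide-treated mice lay below it. Semaglutide + ketone ester and semaglutide values were separate in 20.1% of all genes tested and in 0 of the 8 factors. The median log2 fold change of the 8 factors was -0.05, against a median of -0.0002 over all genes tested.

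Both calls of the second comparison rested on few mice. For Myod1, the adjusted p was 0.056 without mouse 14, 0.073 without mouse 19 and 0.19 without mouse 21. For Mef2c, it was 0.083 without mouse 21 and 0.063 without mouse 22. Without mouse 13, by contrast, Mef2c differed by 1.08 on the log2 scale (adjusted p = 1.9e-05), Myod1 by -0.83 (adjusted p = 0.033), and Myf6 also passed the threshold (-0.37 ± 0.09, SE, adjusted p = 0.0053, limma), against 33.4% of all genes. That was the only 1 of 13 fits with a mouse left out in which Myf6 passed. With all mice, Myf6 had a log2 fold change of -0.27 ± 0.12 (SE, adjusted p = 0.12). The remaining members had -0.12 (Mef2a, adjusted p = 0.48), -0.12 (Mef2d, adjusted p = 0.39), 0.01 (Six4, adjusted p = 0.98), 0.08 (Pax7, adjusted p = 0.85) and 0.05 (Myf5, adjusted p = 0.93).

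**Figure D2:**
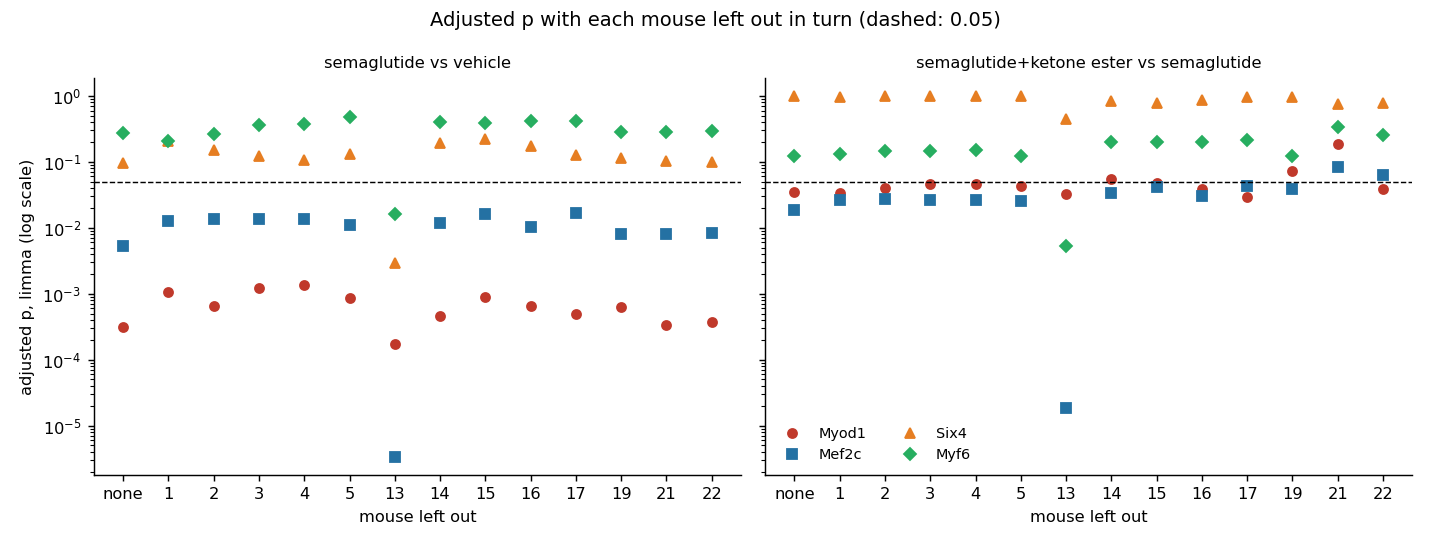
Adjusted p (limma, log axis) of Myod1, Mef2c, Six4 and Myf6 with no mouse or with each mouse left out in turn (x axes), for semaglutide against vehicle (left) and semaglutide + ketone ester against semaglutide (right). Without mouse 13, Six4 (0.0030) and Myf6 (0.016) fell below the dashed line at 0.05 on the left, and on the right Myod1 crossed above it without mice 14, 19 and 21.

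The third comparison sets the combined treatment against vehicle. None of the 8 factors (0 of 8) passed the threshold in limma, edgeR or DESeq2, where 0.366% of all genes tested did so in limma. Only Myod1 had an unadjusted p under 0.05 (0.013), with a log2 fold change of 0.75 ± 0.27 (SE, adjusted p = 0.31), and mice 19 and 22 were above the vehicle range. For Mef2c the log2 fold change was -0.04 (95% interval -0.54 to 0.45, adjusted p = 0.98). Six4 was higher in all 3 semaglutide + ketone ester-treated mice (366 to 502) than in all 5 vehicle-treated mice (271 to 365), an arrangement found in 11.3% of all genes tested in one direction or the other, and had a log2 fold change of 0.38 ± 0.18 (SE, adjusted p = 0.50, limma). The other factors had log2 fold changes from -0.19 (Mef2a, adjusted p = 0.61) to 0.04 (Myf5, adjusted p = 0.99), with Myf6 at -0.11 (adjusted p = 0.84), Mef2d at -0.08 (adjusted p = 0.86) and Pax7 at -0.11 (adjusted p = 0.93).

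**Figure D3:**
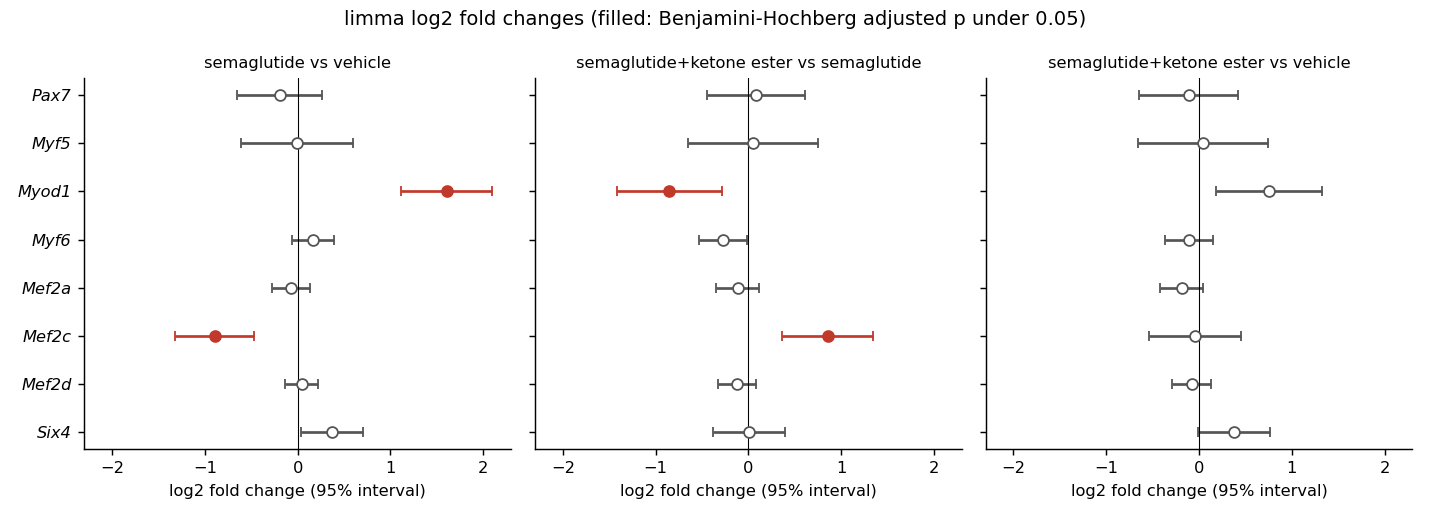
log2 fold changes (x axes) of the 8 factors in the 3 comparisons, with the 95% interval of the limma model as bars and filled points where the adjusted p was under 0.05. Myod1 was at 1.61 and Mef2c at -0.90 for semaglutide against vehicle, and with the ketone ester against semaglutide alone they were at -0.85 and 0.85.

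Seen mouse by mouse, Myod1 and Mef2c did not simply mirror each other. Mouse 13 combined a Myod1 count of 580, the second highest of all mice, with a Mef2c count of 13926. Mouse 14 had the highest Myod1 count, 942, and of mice 14 to 17 also the highest Mef2c count, 7422. Over the 13 mice Pearson's r of their log2 values was -0.62, and with each group's own mean taken off it was 0.16, a description of mice that share libraries and scaling with both genes. Myf6 and Mef2c had an r of -0.79 over the 13 mice and -0.76 within groups, and mouse 13 contributed to both. Of the semaglutide-treated mice it had the lowest Myf6 count (1263) and the highest Mef2c count (13926). Neither r was computed without mouse 13, so an inverse relation among the other mice is not shown. Among vehicle-treated mice, mouse 5 was lowest in both genes (1296 and 12905).

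**Figure D4:**
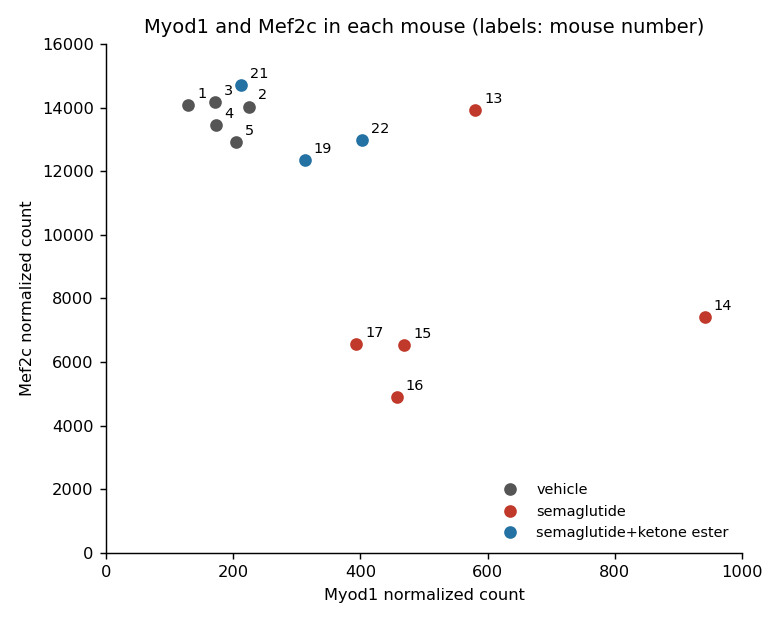
Normalized counts of Myod1 (x axis) and Mef2c (y axis) in each mouse, with the mouse number beside each point. Semaglutide mice 14 to 17 lay at high Myod1 and low Mef2c counts, and mouse 13 lay at a Myod1 count of 580 with a Mef2c count of 13926, beside the vehicle and semaglutide + ketone ester groups on the Mef2c axis.

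The genes whose pattern over the 13 mice was most like that of each factor were found by Pearson's r of log2 values across all genes tested. For Mef2c these were Pcyox1, Eml1 and Kmt5a, each with an r of 0.99. Eml1 averaged 1860.2 normalized counts under vehicle, 728 under semaglutide and 1881 under semaglutide + ketone ester, and in mouse 13 it had 1582 where the other semaglutide-treated mice had 393 to 609. For Myod1 they were Rpl41 (r = 0.94), Cenpv (0.92) and Rnpepl1 (0.91). Rpl41, a gene of a ribosomal protein, averaged 1823 under vehicle, 2805 under semaglutide and 2440.2 under semaglutide + ketone ester, and mouse 13, at 2789, lay among the other semaglutide-treated mice (2661 to 3189). For Myf6 they were Sorbs3 (r = 0.94), Slc1a1 (0.92) and Tapt1 (0.92), and mouse 13 was below the other semaglutide-treated mice in all 3. The nearest genes to Six4 (Dhtkd1, Aox1 and Vmac) had an r of 0.85 to 0.88, those to Mef2a (Hdac3, Tmem30a and Anln) 0.89 to 0.93 and those to Mef2d (Acbd4, Ino80 and Pxk) 0.88 to 0.91. For Pax7 they were Abhd17c (r = 0.87), Chodl (0.85), itself a satellite cell marker, and Actr6 (0.83), and for Myf5 Itgb7, Prps2 and Arhgap30, with an r of 0.80 to 0.85. Being the highest values among all genes tested, these correlations are a description only.

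Of the genes that work with the factors, the E proteins, the dimer partners of Myod1, Myf5 and Myf6, were tested as 3 genes. Across all genes, 26.5% passed between semaglutide and vehicle, and 20.7% between semaglutide + ketone ester and semaglutide. Tcf3 (log2 fold change 0.41 ± 0.12, SE, adjusted p = 0.022) and Tcf12 (0.21 ± 0.07, adjusted p = 0.044, limma) rose under semaglutide, and the remaining gene, Tcf4, was at 0.16 (adjusted p = 0.13; chosen after its value was seen). The call of Tcf3 was lost without mouse 1 (0.056), 5 (0.054) or 14 (0.051), and that of Tcf12 held in 2 of 13 fits with a mouse left out (those without mouse 2 or 13), with an adjusted p of up to 0.10, and was lost in 2 of 11 other settings (up to 0.071). No E protein gene passed the threshold between semaglutide + ketone ester and semaglutide (0 of 3). Of 11 tested inhibitors of bHLH factors, 1 fell under semaglutide and 0 rose, namely Bhlhe41 (-0.94 ± 0.18, SE, adjusted p = 0.0021), a repressor that binds E-boxes. With the ketone ester, 3 of the 11 were higher than under semaglutide alone, where 20.7% of all genes passed in either direction. They were Bhlhe41 (0.88, adjusted p = 0.0091), its paralog Bhlhe40 (0.96, adjusted p = 0.0065) and Id4 (1.20, adjusted p = 0.025, limma), which titrates E proteins (the last pair chosen after their values were seen). Id4 was near the floor, with 6 to 13 reads per mouse under semaglutide and 16 to 25 with the ketone ester. The summed normalized counts of the 12 listed inhibitors were 3964 to 4573 under vehicle, 2781 to 4227 under semaglutide and 4373 to 4932 under semaglutide + ketone ester.

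Among 15 tested other myogenic factors, Eya4, a cofactor of Six4 and its relatives, rose under semaglutide (0.68 ± 0.15, SE, adjusted p = 0.0051, limma), and 0 fell. Between semaglutide + ketone ester and semaglutide, its paralog Eya1 alone passed the threshold (-0.31, adjusted p = 0.046, limma, chosen after its value was seen). Calls of genes so marked, here and elsewhere, were not followed through the other settings or the fits that left out a mouse. Of all genes tested, 20.7% passed in this comparison and 26.5% between semaglutide and vehicle, the background also for the MEF2 genes below. Of 5 repressors of MEF2, the class IIa histone deacetylase gene Hdac9, itself known as a MEF2 target, fell 2.10-fold under semaglutide (-1.07 ± 0.18, SE, adjusted p = 0.00083) and was higher with the ketone ester than under semaglutide alone (1.20 ± 0.21, SE, adjusted p = 0.0016). Its paralog Hdac4 was lower with the ketone ester than under semaglutide alone (-0.57, adjusted p = 0.041; chosen after its value was seen). Of 10 coactivators and kinases of MEF2, Camk2a fell under semaglutide (-0.66 ± 0.21, SE, adjusted p = 0.034) and 0 rose. That call held in 6 of 13 fits with a mouse left out, being lost without mouse 1, 2, 3, 4, 15, 16 or 17 with an adjusted p of up to 0.081, and was lost in 5 of 11 other settings (up to 0.066).

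Of 12 tested genes known as targets of myogenic factors, 4 changed under semaglutide, 2 in each direction, where 26.5% of all genes passed. Chrna1, the acetylcholine receptor subunit whose transcription Myod1 and myogenin drive, rose 1.76-fold (0.82 ± 0.11, SE, adjusted p = 0.00024), and the intermediate filament gene Des rose 1.38-fold (0.46 ± 0.13, SE, adjusted p = 0.021). Mb, which encodes myoglobin and is linked to MEF2 activity, fell 4.45-fold (-2.15 ± 0.22, SE, adjusted p = 3.3e-05), and Myl1, a fast myosin light chain, fell 2.35-fold (-1.23 ± 0.25, SE, adjusted p = 0.0030, limma). The call of Des was lost without mouse 3 (0.052), 4 (0.057) or 17 (0.051), and with no filter on low values (0.082). The list's median log2 fold change was -0.23. Between semaglutide + ketone ester and semaglutide, 7 of the 12 passed the threshold, 5 higher and 2 lower, where 20.7% of all genes passed, with Mb at 1.64 ± 0.25 (SE, adjusted p = 0.0010), Myl1 at 1.73 ± 0.29 (SE, adjusted p = 0.0014) and Des at -0.55 ± 0.15 (SE, adjusted p = 0.022), and a median of 0.44. For Des, this second call was lost without mouse 21 (0.12) or 22 (0.094), and in 2 of 11 other settings (up to 0.096). Chrna1 was at -0.34 (adjusted p = 0.076).

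**Figure D5:**
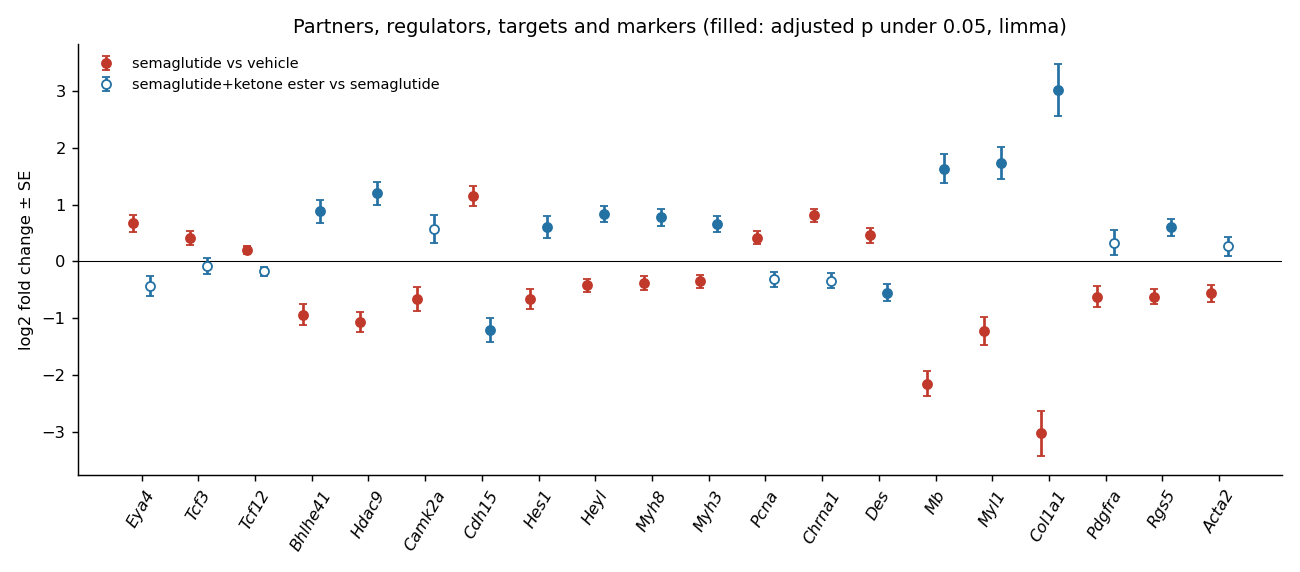
log2 fold change ± SE (y axis) of the partners, inhibitors, repressors, targets and markers named by the rule, for semaglutide against vehicle (red) and semaglutide + ketone ester against semaglutide (blue), with filled points where the adjusted p was under 0.05 in limma. Mb was at -2.15 and Hdac9 at -1.07 under semaglutide, and Chrna1 at 0.82 and Cdh15 at 1.15. Both comparisons share the semaglutide-treated mice.

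Of 14 tested satellite cell markers, a list that includes Pax7, 3 passed the threshold under semaglutide, near the 26.5% of all genes. Cdh15 (M-cadherin), an adhesion molecule of satellite cells, rose 2.22-fold (1.15 ± 0.18, SE, adjusted p = 0.00060). The Notch targets Hes1 (-0.66 ± 0.17, SE, adjusted p = 0.012) and Heyl (-0.42 ± 0.12, SE, adjusted p = 0.017, limma) fell, so the list did not move in one direction, and its median was -0.07. With columns rescaled to equal totals, Heyl did not pass (-0.25, adjusted p = 0.085). With the ketone ester, 5 of the 14 differed from semaglutide alone, where 20.7% of all genes did, with Cdh15 lower (-1.20 ± 0.21, SE, adjusted p = 0.0018), Sdc4 lower (-0.58), and Heyl (0.83), Hes1 (0.61) and Notch3 (0.50) higher (Sdc4 and Notch3 chosen after their values were seen). The call of Hes1 (adjusted p = 0.044) held in 4 of 13 fits with a mouse left out, those without mouse 2, 4, 5 or 13, and was lost in 4 of 11 other settings (up to 0.18). Sdc4 was the only gene of these lists that differed between semaglutide + ketone ester and vehicle (-0.93, adjusted p = 0.042, limma). This call of Sdc4 was not followed through the fits that left out a mouse. Over all genes, the calls in this comparison went from 45 to 5 without mouse 21 and 4 without mouse 22, but to 132 without mouse 13. Hes1, Heyl and Notch3 are also expressed by pericytes and smooth muscle, and all 3 markers of those cells fell under semaglutide, Rgs5 by 0.62 and Acta2 by 0.56 on the log2 scale (adjusted p = 0.0044 and 0.013). Their summed normalized counts were 5880.0 to 8025 under vehicle, 3286 to 5090.5 under semaglutide and 5798 to 6685 under semaglutide + ketone ester. The part of these cells in the values of the Notch genes was not tested.

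Among genes of new fibre formation, those of myoblast fusion gave few or no counts. Mymk, needed for the fusion of myoblasts, had at most 5 reads in any mouse, and Mymx was listed at 0 in all 13 (both chosen after their values were seen). The embryonic and neonatal myosin genes Myh3 (-0.35 ± 0.12, SE, adjusted p = 0.046) and Myh8 (-0.38 ± 0.12, SE, adjusted p = 0.038) fell under semaglutide, and each was higher with the ketone ester (0.66 and 0.78, adjusted p = 0.0054 and 0.0026, limma). Those first calls held in 4 of 13 (Myh3, without mouse 3, 13, 14 or 19) and 5 of 13 (Myh8, without mouse 5, 13, 19, 21 or 22) fits with a mouse left out, with an adjusted p of up to 0.12 and 0.096, and each was lost in 4 of 11 other settings, with up to 0.27 (Myh3) and 0.15 (Myh8). Of the cell cycle genes, 5 of 7 were too low to be tested, and Pcna, which also serves in DNA repair, rose (0.42 ± 0.11, SE, adjusted p = 0.013).

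Markers of other cells were followed because they could move with the factors. The 7 muscle fibre markers summed to between 2283815 and 2740318 normalized counts under vehicle. The sums were 1411849 to 1986590 in semaglutide mice 14 to 17, 2476091 in mouse 13, and 2871172 to 3378496 under semaglutide + ketone ester, so that mouse 13 was within the vehicle range and mice 14 to 17 were below it, as for Mef2c, and the part of fibre content in the values of the factors was not tested. Among these 7 genes, 0 passed the threshold under semaglutide and 2 were higher with the ketone ester than under semaglutide alone (Acta1 and Myh4, chosen after their values were seen). Of all genes tested, 26.5% and 20.7% passed in these comparisons, the background also for the lists below. Erythroid markers summed to 1001 to 1723 under vehicle, to 36.9 to 2326 under semaglutide, with mouse 13 highest, and to 2077 to 4178 under semaglutide + ketone ester. All 3 erythroid genes were higher with the ketone ester than under semaglutide alone, and their part in the values of Mef2c was not tested. Of 4 fibroblast markers, Col1a1 (-3.02 ± 0.40, SE, adjusted p = 0.00018) and Pdgfra (-0.62 ± 0.19, SE, adjusted p = 0.027) fell under semaglutide, the latter not without mouse 2 (0.061), 4 (0.068), 5 (0.067), 14 (0.057), 15 (0.059) or 17 (0.061), nor with equal totals (0.10), and Col1a1 was higher with the ketone ester (3.03). Endothelial, macrophage, adipocyte and Schwann cell lists held 0 genes that passed the threshold under semaglutide, with 2 of 4 endothelial genes, Cdh5 and Kdr, higher with the ketone ester (chosen after their values were seen). Semaglutide mouse 16, which had the lowest Mef2c count (4901) and the lowest fibre sum, also stood apart in these lists. Its adipocyte markers summed to 2789 against 21.4 to 298 in the other semaglutide-treated mice and 215 to 1504 under vehicle, and its macrophage markers to 814 against 203 to 278 and 149 to 541. Its normalized counts summed over all genes to 14876576, the lowest of all mice. The other semaglutide-treated mice had 17422393 to 18100930. All semaglutide-treated mice were below the vehicle-treated (18962089 to 19866025) and the semaglutide + ketone ester-treated mice (19614176 to 20640976). Without mouse 16, Mef2c had a log2 fold change of -0.75 (adjusted p = 0.010) under semaglutide and 0.71 (adjusted p = 0.030) with the ketone ester against semaglutide, and Myod1 had 1.67 (adjusted p = 0.00064) and -0.91 (adjusted p = 0.038, limma). The part of these cells in the values of the factors was not tested. Of these lists and of the fibre, fibroblast, pericyte and erythroid lists, 0 markers were at 0 in every mouse of a group.

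The promoter of Mef2c is shown because Mef2c is the factor that fell and because MEF2 genes are known to be controlled through E-boxes and MEF2 sites. Of the 8 factors, 6 matched the RefSeq promoter table (GRCm38.p6), with 9 start sites. The 250 bases before the most upstream start of Mef2c, at chr13:83503784-83504033 on the plus strand, hold 2 E-boxes (CANNTG, the same on both strands) and 1 MEF3 match (TCAGGTT on either strand), given in capitals.
Mef2c promoter: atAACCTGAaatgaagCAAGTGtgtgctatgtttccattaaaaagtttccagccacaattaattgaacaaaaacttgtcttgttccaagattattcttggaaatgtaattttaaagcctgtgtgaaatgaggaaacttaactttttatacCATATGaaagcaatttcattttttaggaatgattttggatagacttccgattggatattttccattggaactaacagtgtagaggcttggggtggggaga
The E-boxes begin 234 and 100 bases before the start. Another start of Mef2c has 1 E-box in its window, at 245 bases, and the window of its remaining start has 0. The windows of Mef2a, Mef2d, Myf5, Pax7 and Six4 also have 0, with 1 MEF3 match for Six4. The windows of that remaining Mef2c start, of Pax7 and of Six4 overlap annotated exons of their own genes. Over all 32851 promoter windows of this length in the table, 66.2% held an E-box, 3.49% the MEF3 match and 2.92% the MEF2 consensus, which no window of the factors held. A match is a description of the letters and not a bound site.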

How the data were processed

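RNA from the gastrocnemius of 13 mice was sequenced in bulk. The values deposited by the authors are gene-level normalized counts, a signal scaled between samples; DRAGEN, DESeq2 and the build mm10 are named in the submitters' processing notes, and the counting program and annotation are not given in the sources used here. Dividing each column by the value of 1 read gave whole reads for 100% of values (tolerance 0.02). Fold changes are on the scale of log2(normalized count + 1), which understates the change of low genes, for genes with a mean of at least 10. All 3 groups entered 1 limma model (3.58.1, R 4.3.3) with a trended prior variance and Benjamini-Hochberg adjustment over 12303 genes at 0.05. edgeR's quasi-likelihood test (4.0.16) and DESeq2 (1.42.0) were run on the recovered reads, and edgeR called 3311, 2557 and 45 genes in the comparisons of semaglutide with vehicle, of semaglutide + ketone ester with semaglutide, and of semaglutide + ketone ester with vehicle. Other alternatives changed the pseudocount, filter, scaling, weights and groups fitted, and left out each mouse in turn.

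The 8 factors and the gene lists around them were chosen with earlier results of these data known. Besides the factors, the text names at most the 2 genes of each list with the largest change in each direction among those that passed between semaglutide and vehicle. Myog and Pax3 were named whatever their values, as were the genes most like each factor. Other exceptions are marked, and their calls were not followed through the other settings or the fits that left out a mouse. The limma model reported and the edgeR and DESeq2 fits were tested on simulated data, for semaglutide against vehicle. The other settings, the fits that left out a mouse and the correlations were not. Sequences are from RefSeq promoters (GRCm38.p6) and GENCODE vM21 transcripts.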

Additional observations from a re-analysis of the deposited data

Results flagged for a closer look

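For each of the 8 factors, the vehicle and semaglutide groups of 5 mice were checked for a mouse far from the rest, by the gap to its nearest neighbour over the group's range. Of these 16 groups, 2 held such a mouse, and chance alone gives about 1 in 20 groups. For Myf6 it was semaglutide mouse 13, lowest with 1263 normalized counts, where the gap was 0.82 of the range. For Mef2c it was the same mouse, highest with 13926 normalized counts, where the gap was 0.72 of the range. Nothing in the labels sets mouse 13 apart, and the cause was not tested.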

How the results depend on the processing

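Between semaglutide and vehicle, Myod1 and Mef2c passed the threshold under all 11 other settings and all 13 fits that left out a mouse. The number of factors that passed, 2, became 4 with equal column totals (35.2% of all genes passed) and 4 with arrayWeights (40.5%), against 26.5% of all genes in the model reported, and was 2 to 4 with a mouse left out. Between semaglutide + ketone ester and semaglutide, it was 5 with equal totals (35.4%), 3 with arrayWeights (36.1%), 1 without a variance trend (18.4%), 0 with only the 2 groups compared (9.82%) and 0 to 3 with a mouse left out, against 2 (20.7%). These counts moved with the share of all genes. Equal totals moved the median log2 fold change of all genes to 0.17 and -0.24, and the calls from 1540 higher and 1715 lower to 3351 and 985, and from 1234 and 1312 to 637 and 3715.

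Signs changed only where a factor had not passed. With equal totals, the log2 fold change was 0.16 (Myf5) and 0.10 (Mef2a) for semaglutide against vehicle, -0.15 (Pax7), -0.17 (Myf5) and -0.23 (Six4) for the ketone ester against semaglutide, and -0.017 (Myf5) against vehicle. With quantile normalization, Myf5 was at 0.10, -0.12 and -0.015 in those 3 comparisons, and Pax7 was at -0.014 for the ketone ester against semaglutide. There, Six4 was at -0.10 with arrayWeights, -0.010 with edgeR and -0.012 with DESeq2.

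With a mouse left out, Myf5 under semaglutide alone was at 0.044 (without mouse 3), 0.0065 (4), 0.11 (5), 0.061 (13) and 0.13 (17). For the ketone ester against semaglutide, Pax7 was at -0.0032 (16) and -0.058 (21), Myf5 at -0.018 (13), -0.085 (17) and -0.22 (21), and Six4 at -0.14 (13), -0.017 (17) and -0.11 (22). Against vehicle, Pax7 was at 0.025 (22), Myf5 at -0.098 (1) and -0.22 (21), and Mef2c at 0.011 (19). Myf5 had 11 to 27 reads and Pax7 36 to 66 in each library. No paired analysis was possible because the replicate numbers were given in accession order and pair no mice.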
